A study of Mus musculus with 74 samples.

Results

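Acute loss of Nanog was followed in 44iN cells, mouse embryonic stem (ES) cells that lack endogenous Nanog and carry a Nanog transgene switched on by doxycycline (Dox). The libraries were chosen by name as the 2 grown in Dox (44iN +Dox) and the 2 from which Dox had been withdrawn for 24 h (44iN -Dox 24h). These are 4 of the 35 RNA-seq libraries with gene counts. They were paired by the replicate number that ends their name, and genes moving the same way in both pairs were sought. All 4 were grown in fetal calf serum with LIF at 10 ng/mL, after at least several passages in Dox at 1 µg/mL. The comparison asks which transcripts move within a day of switching Nanog off while LIF is kept. A further 10 libraries with LIF are used for reference. They include 3 of Tg2a cells, which have their own Nanog, in serum (Tg2a FCS). Another 2 are of 44iN cells kept without Dox for the long term under G418 (44iN -Dox LT). The other 5 are of SunTag cells, in which Dox drives a CRISPR activator to the endogenous Nanog promoter (3 without Dox, 2 with it for 72 h). 44iN is 1 line, its 2 replicates are not stated to be separate cultures, and p-values measure only the spread between these libraries. Dox and the Nanog transgene change together in 44iN cells and cannot be told apart.

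Nanog is a homeodomain protein that, with Oct4 (encoded by Pou5f1) and Sox2, forms the core of the ES cell transcription network. It binds enhancers of other pluripotency genes and also genes that are silent in ES cells, many of which carry the Polycomb mark H3K27me3. ES cells can live without Nanog when LIF is present, but they differentiate more readily.

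The 4 libraries held between 12624297 and 37974444 estimated counts, and the library in Dox was the deeper of each pair, by 2.18 times in pair 1 and 1.53 times in pair 2. Values below are normalised counts, the authors' counts divided by a size factor of each library, and are given for pair 1 and then for pair 2. The 7 ES cell markers, Pou5f1, Sox2 and Zfp42 among them, summed to between 83434 and 99712 normalised counts, with none of the 7 at 0. Fibroblast markers summed to between 97.6 and 196, with Dcn and Lum at 0 in all 4 libraries. The whole normalised libraries summed to between 29953761 and 41816623, against 25763120 to 32167518 in the other 31 libraries, and the part of this spread in the results was not tested.

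Nanog itself (ENSMUSG00000012396, mm9 chr6:122657507-122664651) checked the labels. It had 13366 and 18394 normalised counts in Dox and 706 and 739 after 24 h without it, so that the groups lay far apart and the fall was 18.9-fold in pair 1 and 24.9-fold in pair 2. The log2 fold change was -4.53 (SE 0.25, adjusted p = 5.62e-69 by edgeR's quasi-likelihood test with the pair as a block, Benjamini-Hochberg adjustment). It was 5.09e-40 by DESeq2 without the block and 0.0902 by edgeR without it. Tg2a FCS cells, whose Nanog is endogenous, held between 19420 and 20261, above both libraries in Dox. Which parts of the Nanog gene the transgene carries was not examined.

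With the pair as a block, 1912 of 14376 genes tested passed at an adjusted p under 0.05 (13.3% of genes tested), of which 633 rose (4.40%) and 1279 fell (8.90%). The median log2 fold change of all genes tested was -0.03. Among the genes called, 1883 moved the same way in both pairs (625 up and 1258 down by the fitted change) and 29 did not. Of all genes tested, 10505 moved the same way in both pairs, with a positive fitted change for 5857 and a negative one for 4648. The libraries of the groups did not overlap for 1403 genes called (528 higher and 875 lower). That was so for 37.5% of all genes tested, with a positive fitted change for 3184 and a negative one for 2205. Pairs and overlap were read on the normalised counts, whose median log2 ratio was 0.07 in pair 1 and 0.08 in pair 2. The fit used its own scaling, and over all genes tested its change was positive for 6814 and negative for 7562. No excess of rises or falls over all genes is read from these counts. At least a 2-fold change in both pairs was seen for 656 genes called, of which 184 rose and 472 fell, and at least a 4-fold change in both for 39 that rose and 139 that fell. The within-pair log2 ratios had a Pearson correlation of 0.59 across the 14376 genes, which are not independent of each other.

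These counts depended strongly on the block. With the block, 1 residual degree of freedom is left per gene, and edgeR then took the spread of every gene from the trend over all genes. Without it, edgeR called 0 genes (0% of genes tested), with 1023 at an unadjusted p under 0.05, and DESeq2 called 141 (0.981%), every one of them among the 1912. DESeq2 with the block called 677 (4.71%), and edgeR with the spread shared with the long-term 44iN and Tg2a FCS libraries called 299 (1.95%). A set of 245 genes, 84 up and 161 down, was called in the fit given here, with that shared spread, by DESeq2 with the block and after a correction for GC content. All p-values below are those of edgeR's quasi-likelihood test with the block and Benjamini-Hochberg adjustment over the 14376 genes, unless another is named.

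**Figure D1:**
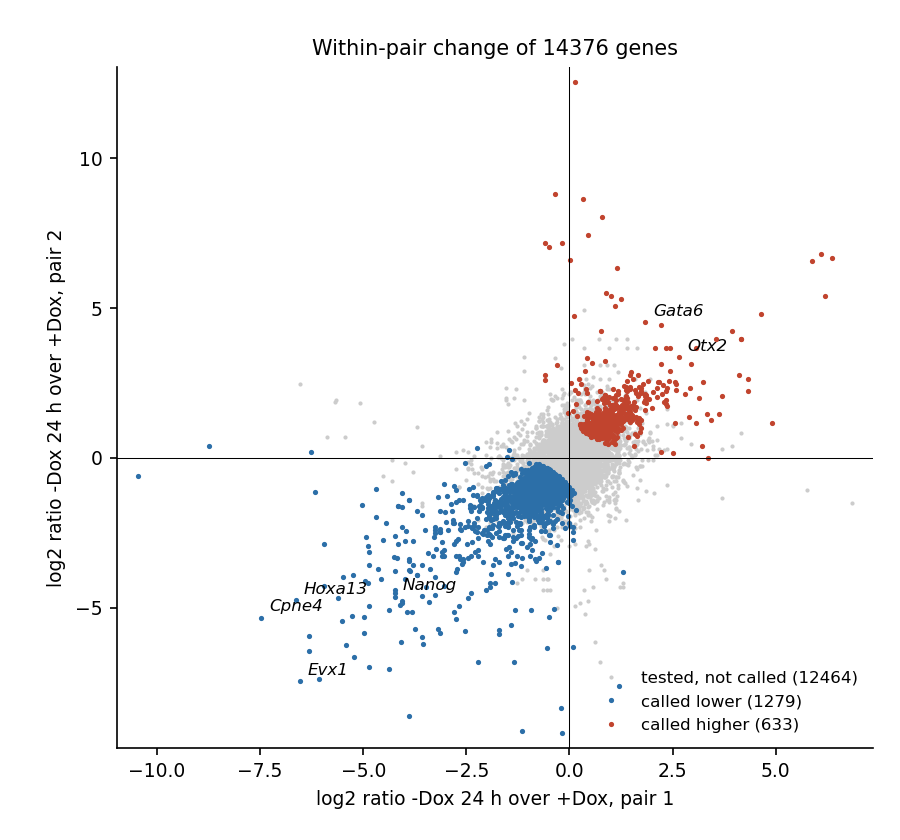
Each point is 1 of the 14376 genes tested, with the log2 ratio of -Dox 24 h over +Dox in pair 1 on the x axis and in pair 2 on the y axis (pseudocount of 1 normalised count). Blue marks the 1279 genes called lower and red the 633 called higher, most of which lie at the lower left and the upper right, and a few of either colour moved in 1 pair only.

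The base composition of the transcripts moved with the change in both pairs. Genes were put in 5 groups of about equal size by the GC content of their transcripts. The median log2 ratio ran from 0.21 in the lowest group (31.9 to 45% GC) to -0.13 in the highest (55.9 to 70.3%) in pair 1, and from 0.6 to -0.67 in pair 2. Of the genes called higher, 270 lay in the lowest group and 24 in the highest, while 55 and 534 of those called lower did. With a smooth curve for GC content removed from each library, 2228 of 13114 genes with a GC value were called (17.0%), 871 up and 1357 down. Each GC group then held 143 to 197 genes called higher and 228 to 297 called lower, and 1273 of the 1726 genes called before and with a GC value were called again. The gene groups below are therefore given with and without this correction, and what causes the trend was not tested.

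**Figure D2:**
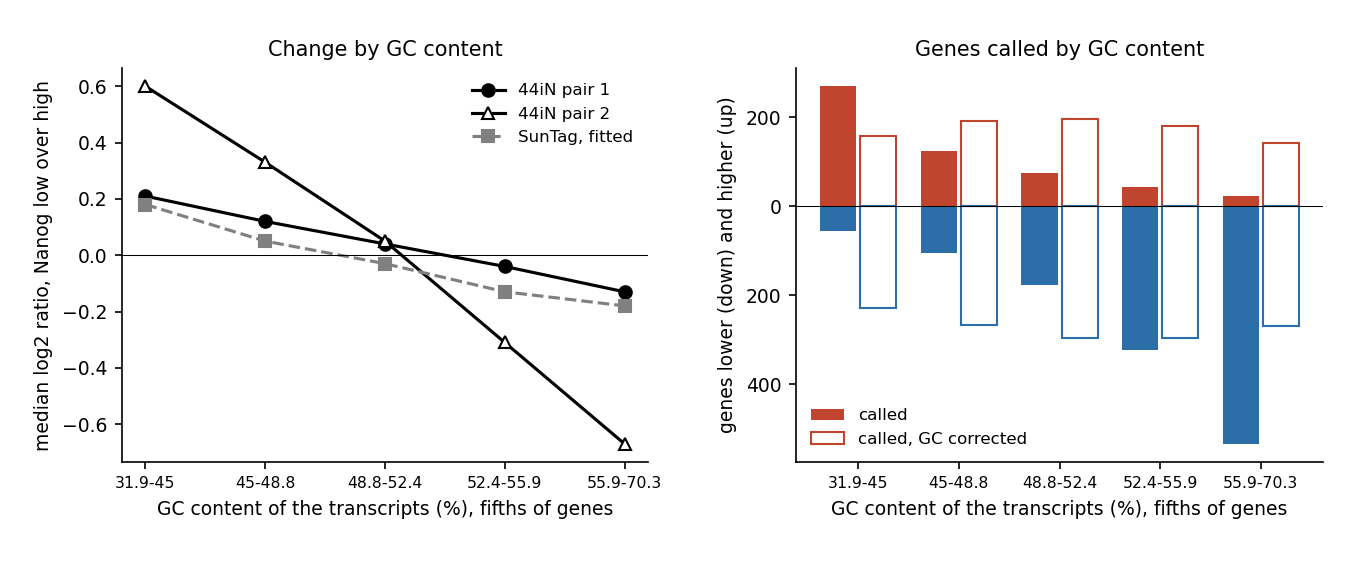
Left, median log2 ratio of Nanog-low over Nanog-high libraries by group of transcript GC content (%), for 44iN pair 1, 44iN pair 2 and the fitted SunTag effect: all 3 lines fall with GC content, pair 2 from 0.6 to -0.67. Right, number of genes called higher (up) and lower (down) per group, filled before and open after the GC correction, after which each group holds 143 to 197 genes called higher and 228 to 297 called lower.

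Genes of the 5′ end of the HoxA cluster and its neighbour Evx1 fell together, and Evx1 had the largest fitted fall of the genes named. Hox and Evx genes encode homeodomain proteins that pattern the trunk and limbs and are held silent by Polycomb in ES cells. Of 41 such genes, 11 had enough counts to be tested, and among these 6 fell, 0 rose and 5 did not pass. The median log2 fold change was -1.26, against -0.03 for all genes. Evx1, Hoxa13, Hoxa9 and Hoxa7 reached the limit of 10 normalised counts in both libraries in Dox only. They were tested through the group where they are high, so the filter partly sets this count and median. The GC correction left 6 down and 0 up. With the shared spread 4 fell, and DESeq2 without the block also called 4. DESeq2 with the block called 3, and Evx1 was not among them.

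Hoxa13 (mm9 chr6:52207693-52210874), a regulator of distal limb and hindgut, had 1055 and 896 normalised counts in Dox and 9.6 and 32.5 at 24 h without it. It fell 110-fold in pair 1 and 27.5-fold in pair 2 (log2 fold change -5.69, SE 0.33, adjusted p = 1.14e-61). Evx1, a posterior patterning gene that lies next to Hoxa13, had 92.1 and 173 in Dox and no counts in either library at 24 h. At the limit of 3 counts per library, this is at least 12.8-fold lower in pair 1 and at least 19.5-fold lower in pair 2 (adjusted p = 1.05e-18). By DESeq2 the adjusted p of Evx1 was 0.282 with the block and 0.000161 without it.

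Hoxa11, which acts in limb and uterus, had 191 and 555 in Dox and 12 and 53.2 without it (log2 fold change -3.68, SE 0.36, adjusted p = 3.31e-21). Hoxa10 had 243 and 496 in Dox and 26.4 and 88.7 without it (-2.86, SE 0.33, adjusted p = 7.21e-16). Hoxa9 had 31.7 and 94.9 and then 7.2 and 26.6 (-2.02, SE 0.53, adjusted p = 0.00228). The groups did not overlap for any of these 3 genes. Hoxa11as, a noncoding transcript antisense to Hoxa11, had 43.6 and 201 in Dox and 0 and 11.8 without it (adjusted p = 9.75e-12), and counting was by strand, so that it could be told apart from Hoxa11.

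Hoxa7, the next gene towards the 3′ end of the cluster, did not pass. It had 26.8 and 48.2 in Dox and 26.4 and 8.87 without it (log2 fold change -1.06, SE 0.55, adjusted p = 0.193). Outside HoxA, Hoxd13 on chromosome 2 fell, with 105 and 88.6 in Dox and 64.8 and 23.7 without it (-1.26, SE 0.40, adjusted p = 0.0195).

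In Dox Hoxa13, Hoxa11, Hoxa10 and Evx1 stood above Tg2a FCS cells. The Nanog counts did not, but in 44iN cells they come from the transgene, whose parts were not examined. Hoxa13 was between 7.97 and 13.3 in the 3 Tg2a FCS libraries, Hoxa11 between 16.4 and 18.6, Hoxa10 between 11.6 and 17.5, and Evx1 between 2.09 and 5.31. At 24 h without Dox, Hoxa13 at 9.6 in pair 1 was within the Tg2a FCS range, and the other library was above it. In 44iN -Dox LT cells Hoxa13 was at 1.92 and 3.41. SunTag cells, which raise endogenous Nanog, had Hoxa13 at 435 and 167 in Dox and at 16.1, 10.1 and 8.74 without it.

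**Figure D3:**
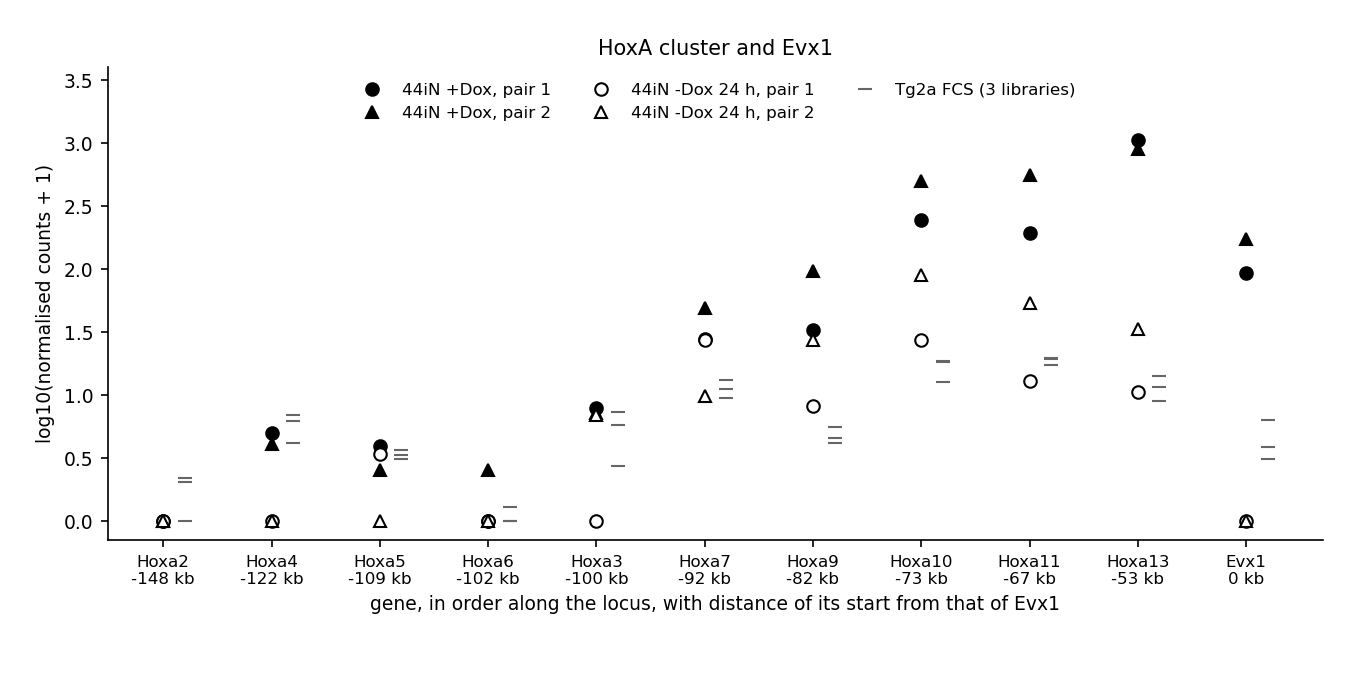
Level of the HoxA genes within 150 kb of Evx1 and of Evx1 itself, as log10 of normalised counts plus 1, in order along the locus with the distance of each gene start from that of Evx1 in kb. Filled symbols are 44iN +Dox, open symbols 44iN -Dox 24 h (circles pair 1, triangles pair 2) and dashes Tg2a FCS. Filled and open symbols are apart from Hoxa9 to Evx1 and mixed or at low levels from Hoxa2 to Hoxa7.

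The promoter windows of Evx1 and Hoxa13, which fell furthest in the cluster, are shown from 250 bases before to 50 after the annotated start, on the coding strand, in mm9. Evx1 is chr6:52263242-52263541 (+) and Hoxa13 chr6:52210825-52211124 (-). Each holds 1 match to the octamer core bound by POU factors such as Oct4, in capitals (TTTGCAT, or ATGCAAA on the other strand).
Evx1: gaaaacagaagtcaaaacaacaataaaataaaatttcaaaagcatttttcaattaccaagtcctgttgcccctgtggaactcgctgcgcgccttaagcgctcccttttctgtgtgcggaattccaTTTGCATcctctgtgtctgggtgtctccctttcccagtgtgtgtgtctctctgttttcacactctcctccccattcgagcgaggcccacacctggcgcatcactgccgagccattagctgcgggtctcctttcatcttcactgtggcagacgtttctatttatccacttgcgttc
Hoxa13: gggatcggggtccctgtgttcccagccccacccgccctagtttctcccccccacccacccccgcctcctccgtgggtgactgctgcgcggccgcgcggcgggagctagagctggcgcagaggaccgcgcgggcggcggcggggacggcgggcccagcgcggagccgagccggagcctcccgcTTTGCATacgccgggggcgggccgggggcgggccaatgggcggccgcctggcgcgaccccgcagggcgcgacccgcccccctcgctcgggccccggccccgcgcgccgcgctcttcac
The windows of Hoxa11, Hoxa10, Hoxa9 and Otx2 hold 0 matches. The motif was picked after the results were known, and it is in 4.4% of 22375 protein-coding promoters and in 3.55% of the 13106 whose genes were tested. It is in 4.37% of 1191 promoters whose genes fell and in 4.67% of 535 whose genes rose, differences that were not tested, and its presence is a description of these letters and no site of binding. The Hoxa13 window holds 45 CG dinucleotides, as many as or more than are held by all but 2.31% of promoters, and the Evx1 window holds 12.

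Outside the Hox genes, 2 genes of lipid metabolism and cytokine reception were among the furthest falls. Pla2g4e, a cytosolic phospholipase A2, had 607 and 762 normalised counts in Dox and 38.4 and 20.7 without it (log2 fold change -4.57, SE 0.33, adjusted p = 1.2e-40). Il6ra, the ligand-binding chain of the interleukin-6 receptor, which signals through the gp130 chain that LIF also uses, had 237 and 361 and then 21.6 and 11.8 (-4.16, SE 0.40, adjusted p = 6.33e-22). Both were low in Tg2a FCS cells, at 58.5 to 76.3 for Pla2g4e and 22.3 to 33.4 for Il6ra.

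Kpna7, an importin alpha of oocytes and early embryos, had 131 and 266 in Dox and 2.4 and 5.92 without it. Pla2r1, a receptor for secreted phospholipase A2, had 105 and 168 and then 2.4 and 8.87. Acsm4, a member of the medium-chain acyl-CoA synthetase family, had 192 and 235 and then 19.2 and 8.87. In each of the 3 the groups were far apart, with log2 fold changes of -5.62 (SE 0.56), -4.71 (SE 0.56) and -3.95 (SE 0.44).

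Cpne4, a copine that binds membranes with calcium, had 176 and 159 in Dox and 0 and 2.96 without it (at least 24.5-fold lower in pair 1, adjusted p = 3.12e-21). Ecel1, an endothelin-converting enzyme-like protease of neurons, had 44.6 and 173 in Dox and 0 and 2.96 without it (adjusted p = 2.15e-13). Both were again near the bottom in Tg2a FCS cells, Cpne4 at 2.66 to 7.53 and Ecel1 at 5.84 to 10.7. Of the 12 named decreases, 10 had all 3 Tg2a FCS libraries below both 44iN libraries in Dox.

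Atxn3, which encodes the deubiquitinase ataxin-3, was also among the 12, but the table lists it under more than 1 identifier. The one that fell (ENSMUSG00000093596) had 13.9 and 1547 in Dox and 0 and 2.96 without it, so pair 2 decides it. ENSMUSG00000021189 had 5285 and 1569 in Dox and 5599 and 4611 without it, and rose by 0.71 (SE 0.20, adjusted p = 0.00614). Reads may be split between the identifiers, and neither value is taken as a change of the gene.

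The largest increase of the genes named was that of Otx2, a homeobox gene of the formative epiblast and later of the anterior brain. Otx2 (mm9 chr14:49277354-49287319) had 218 and 171 normalised counts in Dox and 1380 and 1769 after 24 h without it. It was 6.33-fold and 10.3-fold higher (log2 fold change 2.90, SE 0.22, adjusted p = 2.46e-35, and 1.11e-12 by DESeq2 without the block). Tg2a FCS cells lay between the groups, at 672 to 865. In 44iN -Dox LT cells Otx2 was at 1336 and 2025.

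The other transcription factors among the 12 increases were Gata6, Foxa1 and Dmrt1. Gata6, the zinc finger factor that specifies primitive endoderm, had 99.1 and 14 in Dox and 355 and 349 without it (log2 fold change 2.74, SE 0.32, adjusted p = 6.91e-15). Foxa1, a forkhead factor of endoderm, had 22.8 and 17.1 and then 142 and 97.6 (2.48, SE 0.43, adjusted p = 4.13e-07, and 0.06 by DESeq2 without the block). Dmrt1, the DM-domain factor of the testis and germ line, had 333 and 117 and then 1483 and 680 (2.23, SE 0.23, adjusted p = 5.77e-20). The groups did not overlap for these 3 or any other of the 12 increases, since that was a condition of their choice. By DESeq2 the adjusted p of Gata6 was 0.0977 with the block and 0.0161 without it. In Tg2a FCS cells Gata6 (571 to 734), Foxa1 (37.2 to 72.9) and Dmrt1 (629 to 720) were above both 44iN libraries in Dox. Gata6 there was also above both 44iN libraries at 24 h without Dox.

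Dpp4, a cell surface dipeptidyl peptidase, had 514 and 257 in Dox and 2462 and 1381 without it (log2 fold change 2.24, SE 0.21). Spna1, the erythroid alpha spectrin, had 317 and 350 and then 1380 and 1763 (2.13, SE 0.21). Car3, a carbonic anhydrase, had 93.1 and 45.1 and then 422 and 263 (2.24, SE 0.31). Each of these 3 was also called by DESeq2 without the block.

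Cachd1, a protein related to calcium channel subunits, had 35.7 and 48.2 in Dox and 158 and 201 without it. The aspartic protease Napsa had 26.8 and 71.5 and then 134 and 263, and the oxysterol hydroxylase Cyp7b1 had 70.3 and 21.8 and then 199 and 166. Sema6a, a transmembrane semaphorin, had 45.6 and 20.2 and then 149 and 109. Their log2 fold changes lay between 1.90 and 2.01, and DESeq2 without the block called none of these 4. AK157302, a transcript listed under more than 1 identifier, had 99.1 and 0 in Dox and 137 and 172 without it, so that pair 2 decides its call.

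**Figure D4:**
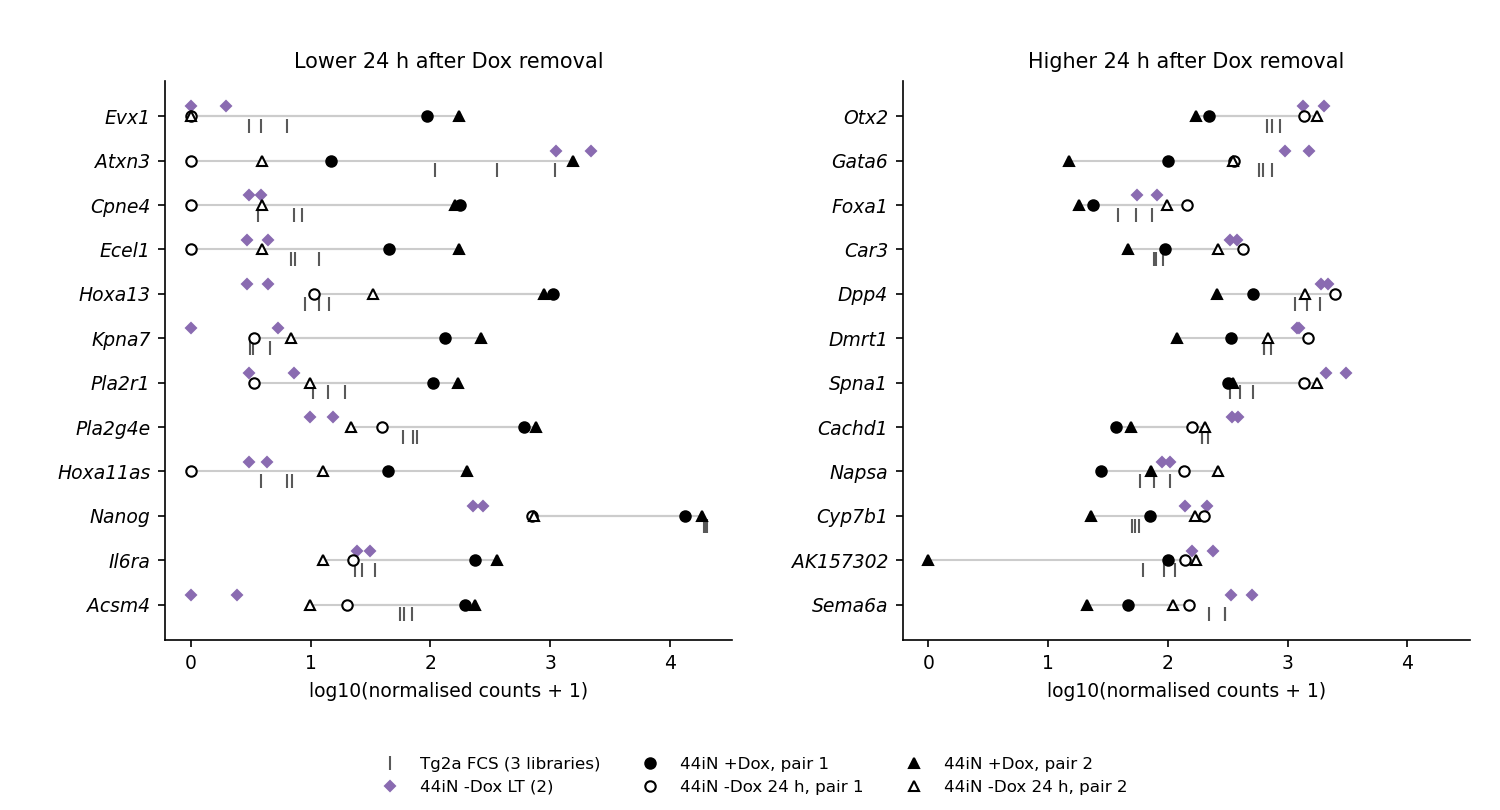
Levels of the 12 genes that fell furthest (left) and the 12 that rose furthest (right), as log10 of normalised counts plus 1. Filled black symbols are 44iN +Dox, open symbols 44iN -Dox 24 h (circles pair 1, triangles pair 2), bars the 3 Tg2a FCS libraries and diamonds the 2 long-term 44iN libraries. Filled and open symbols are separate for every gene shown because genes were chosen for no overlap between the groups. Tg2a FCS lies below both +Dox libraries for 10 of the 12 decreases.

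The gene groups that follow were small, and their counts are to be read against the 13.3% of all genes called. The share called was 15% of cell cycle and Myc genes, 15.8% of LIF and JAK-STAT3 genes, 16.7% of ES cell marker, Wnt and integrated stress response genes, 18.2% of extraembryonic endoderm genes, 18.8% of BAF subunits and 20% of FGF and ERK genes. In groups of this size such shares are close to that of all genes, and the counts describe single members only. The share was 22.2% for formative and primed genes, 25% for p53 targets and fibroblast markers, 27.3% for PRC2 subunits, 30.8% for germ cell genes and 36.4% for Nodal, activin and BMP genes. It was 42.9% for trophoblast, 45% for naive and core, 50% for streak and mesendoderm, 54.5% for Hox and Evx, 66.7% for neural and 83.3% for 2-cell-like genes. None of these shares was tested against that of all genes.

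Among 20 naive and core pluripotency factors, 6 fell, 3 rose and 11 did not pass, with a median log2 fold change of 0.25, and the GC correction gave 6 down and 9 up. Beside Nanog, Prdm14 fell the most. Prdm14, which represses FGF signalling and DNA methyltransferases and acts in germ cells, had 764 and 802 in Dox and 252 and 284 without it (-1.65, SE 0.23, adjusted p = 2.15e-10). It was at 551 to 719 in Tg2a FCS cells and at 133 and 132 in 44iN -Dox LT cells.

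Esrrb, an orphan nuclear receptor that sustains self-renewal, had 10695 and 17962 in Dox and 7629 and 10545 without it (log2 fold change -0.72, SE 0.22, adjusted p = 0.0128, and 0.728 by DESeq2 without the block), and the groups did not overlap. Klf5 fell from 3452 and 4110 to 2073 and 2612 (-0.79, SE 0.19), and Tbx3 from 6279 and 6074 to 4053 and 4434 (-0.64, SE 0.20), both factors of the naive network with no overlap between groups. Pou5f1 fell by 0.73 on the log2 scale (SE 0.22, adjusted p = 0.0114), but with 7843 and 19491 in Dox and 6786 and 9305 without it the groups overlapped.

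Nr5a2, a nuclear receptor that binds the Pou5f1 gene, rose from 1912 and 1560 to 3998 and 3357 (log2 fold change 0.99, SE 0.19). Klf2, a Krüppel-like factor of the naive network, rose from 1955 and 1246 to 3561 and 2875 (0.94, SE 0.19). Klf4, its LIF-responsive relative, had 3803 and 2566 in Dox and 2551 and 2174 without it, which did not pass (-0.51, SE 0.19, adjusted p = 0.0561, and 0.613 after the GC correction). Sox2 had 20843 and 10709 and then 23712 and 19025 (0.41, SE 0.23, adjusted p = 0.249).

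Of 18 further ES cell marker genes, 2 rose and 1 fell, with a median of 0.20, and 6 rose and 1 fell after the GC correction. Both that rose are feedback inhibitors of Nodal. Lefty1 had 27.7 and 54.4 in Dox and 86.4 and 166 without it (log2 fold change 1.52, SE 0.38), and Lefty2 had 147 and 187 and then 358 and 476 (1.22, SE 0.27). Utf1, a chromatin-bound factor of ES cells, fell from 455 and 751 to 274 and 385 (-0.95, SE 0.23), a call lost after the GC correction (adjusted p = 0.0602).

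Of 18 genes of the formative and primed epiblast tested, 1 rose, which was Otx2, 3 fell and 14 did not pass, with a median of -0.11, and after the GC correction 6 rose and 4 fell. Zic2 and Zic5, zinc finger factors of epiblast and neural plate, fell from 783 and 874 to 130 and 76.9 (log2 fold change -3.09, SE 0.26, adjusted p = 1.96e-28) and from 2019 and 1224 to 638 and 476 (-1.61, SE 0.21, adjusted p = 2.88e-12). Tcf7l1, the transcriptional repressor of the Wnt pathway, fell from 558 and 681 to 202 and 192 (-1.74, SE 0.25). None of the 3 overlapped between groups, and each was also called by DESeq2 without the block. Pou3f1, a POU factor of the primed epiblast, had 200 and 138 and then 197 and 112 (-0.24, SE 0.31, adjusted p = 0.639), and a second identifier of the gene was at 0. Fgf5, the usual marker of the primed state, had at most 10.9 normalised counts in any library and was not tested.

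Of 19 genes of the LIF and JAK-STAT3 pathway, 2 rose and 1 fell (median 0.03, and 5 and 2 after the GC correction). Jak2, a kinase of cytokine receptors, fell from 1070 and 869 to 367 and 311 (log2 fold change -1.61, SE 0.22, adjusted p = 4.45e-11). Gbx2, a homeobox target of STAT3, rose from 1373 and 1109 to 2304 and 2683 (0.91, SE 0.19), and Socs2, a feedback inhibitor of cytokine signalling, rose by 0.76 (SE 0.19) with 2554 and 1331 in Dox and 4113 and 2709 without it.

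In the FGF and ERK pathway, 3 of 20 genes rose and 1 fell (median 0.08, and 6 and 3 after the GC correction). Fgfr2, a receptor that marks primitive endoderm, rose by 1.10 (SE 0.26), with 335 and 98 in Dox and 660 and 275 without it, and its groups overlapped. The ERK-responsive genes Spry4 and Egr1 rose by 0.58 (SE 0.20) and 0.74 (SE 0.25). Il17rd, also known as Sef, an inhibitor of FGF signalling, fell from 1615 and 1722 to 809 and 1139 (log2 fold change -0.89, SE 0.20).

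For Nodal, activin and BMP signalling, 4 of 22 genes rose and 4 fell (median 0.02, and 5 and 3 after the GC correction). Beside Lefty1 and Lefty2, Id1, a BMP target that blocks differentiation factors of the helix-loop-helix family, rose from a mean of 190 ± 7.16 to 521 ± 135 normalised counts (SD, n = 2 each, log2 fold change 1.35, SE 0.26, adjusted p = 8.37e-06), while Id3, another Id gene, had 78.3 and 59.1 and then 43.2 and 17.7 and fell by 1.28 (SE 0.45), a call lost after the GC correction (adjusted p = 0.0619). Skil, a corepressor of SMAD proteins, rose from 6891 and 4078 to 12524 and 9116 (0.91, SE 0.21). The inhibitory SMAD gene Smad7 fell from 2421 and 2561 to 1145 and 1588 (-0.98, SE 0.19).

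Of 18 Wnt pathway genes, 1 rose and 2 fell (median -0.09), and 1 was higher and 2 lower after the GC correction, with Lrp6 (corrected log2 fold change -0.27) in place of Lrp5. Fzd7, a Wnt receptor, rose from 1477 and 950 to 4905 and 4247, well apart in all 4 libraries (log2 fold change 1.85, SE 0.20, adjusted p = 1.46e-18). Tcf7l1 is given above, and Lrp5, a Wnt coreceptor, had 151 and 546 in Dox and 122 and 257 without it (-0.82, SE 0.28, adjusted p = 0.0296), with overlapping groups and an adjusted p of 0.151 after the GC correction.

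Among chromatin regulators, 3 of 11 subunits of PRC2, the complex that writes H3K27me3, rose and 0 fell, with a median of 0.50 (5 and 0 after the GC correction, with a median of 0.15). Jarid2 rose from 20656 and 15766 to 34218 and 28815 (log2 fold change 0.70, SE 0.24), and Eed from 16618 and 10634 to 25541 and 20406 (0.68, SE 0.23). Aebp2 had 8693 and 4314 and then 12092 and 7968 (0.58, SE 0.21), with overlap. Phf19, which recruits PRC2 to chromatin, had 190 and 215 in Dox and 182 and 180 without it (-0.25, SE 0.29, adjusted p = 0.61). With the shared spread, and by DESeq2 without the block, 0 of the 11 were called.

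Of 16 BAF subunits, which remodel nucleosomes, 3 fell and 0 rose (median -0.15). The fit with the shared spread called 0 of them and DESeq2 with the block 1. After the GC correction 3 were lower and 1 higher, with Actl6a (corrected log2 fold change -0.26) called lower in place of Smarca4 (adjusted p = 0.0648). Smarcd3 fell from 111 and 280 to 36 and 62.1 (log2 fold change -2.02, SE 0.36, adjusted p = 1.66e-06). Dpf2 and Smarca4 fell by 0.58 (SE 0.20) and 0.53 (SE 0.19) with overlapping groups, and pair 2 supplied most of each fall, Smarca4 having 2494 and 5219 in Dox and 2208 and 3215 without it. None of 9 DNA methylation enzymes passed by edgeR with the block, with 1 at an unadjusted p under 0.05 and 0 called by DESeq2 with or without the block (median -0.03), while after the GC correction 3 were higher and 1 lower. The de novo methyltransferases Dnmt3a and Dnmt3b had log2 fold changes of 0.41 (SE 0.19, adjusted p = 0.143) and 0.37 (SE 0.20, adjusted p = 0.211).

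Among lineage genes, those of neural cells mostly went down, 4 of 6 tested falling and 0 rising (median -1.12, and 3 and 1 after the GC correction). Ncam1, a neural adhesion molecule, fell from 1613 and 1463 to 427 and 405 (log2 fold change -1.98, SE 0.21, adjusted p = 8.91e-18). Pax6, a homeobox gene of the neural tube and eye, fell from 664 and 272 to 230 and 85.8 (-1.68, SE 0.28), and the neuronal tubulin Tubb3 from 530 and 712 to 240 and 231 (-1.47, SE 0.24). Nes fell by 0.76 (SE 0.28), a call lost after the GC correction (adjusted p = 0.105). The summed level of the neural markers was 1043 and 516 in Dox and 432 and 272 without it, nearly all of which was Pax6 and Nes.

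Of 11 extraembryonic endoderm genes, 1 rose, which was Gata6, and 1 fell (median -0.16, and 2 and 2 after the GC correction). Lama1, a laminin of basement membranes, had 2492 and 3361 in Dox and 2001 and 2076 without it (log2 fold change -0.60, SE 0.19). The summed level of 7 endoderm markers was 710 and 204 in Dox and 1296 and 612 without it, and Gata6, counted in this sum, went from 14 to 349 in pair 2. It was the only one of the markers called. Of 7 trophoblast genes, 1 rose and 2 fell (median -0.94, and 1 and 3 after the GC correction). Gata3 rose from 39.6 and 18.7 to 120 and 71 (1.63, SE 0.42) and Krt8, a simple epithelial keratin, fell from 210 and 235 to 106 and 62.1 (-1.50, SE 0.32).

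Of 14 primitive streak and mesendoderm genes, 4 were tested, 1 rose and 1 fell (median 0.42, the same counts after the GC correction). Eomes, a T-box factor of streak and trophoblast, fell from 406 and 367 to 202 and 180 (log2 fold change -1.11, SE 0.27, adjusted p = 0.000856), and Cdx1 rose from 2.97 and 7.78 to 19.2 and 29.6 (2.12, SE 0.71, adjusted p = 0.0266). Of 13 germ cell genes, 2 rose and 2 fell (median 0.11, and 3 and 4 after the GC correction). Kit, the receptor of stem cell factor, fell from 5196 and 4774 to 1320 and 1485 (-1.93, SE 0.20, adjusted p = 2.32e-19), and Prdm14 is the other. The helicase genes Tdrd12 and Ddx4 rose by 0.93 (SE 0.21) and 0.65 (SE 0.19), and the groups overlapped for Ddx4.

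Zscan4 genes, which belong to the 2-cell-like state that a small share of ES cells enters, were higher in both pairs. Of 15 genes listed for this state, 7 had an entry and 6 were tested. Among these 6, 5 rose and 0 fell, with a median of 0.81. The counts were the same after the GC correction, with a median of 0.51. Zscan4e had 2733 and 1575 in Dox and 5150 and 3665 without it (log2 fold change 0.97, SE 0.19), and Zscan4f had 6478 and 3902 and then 11800 and 8131 (0.87, SE 0.21). The Zscan4 genes are near-identical copies whose reads may be split or shared, so the 5 are not independent of each other. In SunTag cells the change, Nanog low minus Nanog high, was 0.12 (SE 0.57) for Zscan4e and 0.01 (SE 0.52) for Zscan4b. It was -0.37 (SE 0.38) for Zscan4f and -0.50 (SE 0.45) for Zscan4d. DESeq2 without the block called 0 of the 6, as did the fit with the shared spread. In bulk libraries, more cells in such a state and more RNA per cell cannot be told apart.

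Of 20 cell cycle and Myc genes, 1 rose and 2 fell, a share of 15% called that is close to the 13.3% of all genes (median 0.01, and 2 and 2 after the GC correction). Ccnd2, a D-type cyclin, fell from 857 and 918 to 238 and 222 (log2 fold change -2.04, SE 0.23, adjusted p = 7.21e-16), while Myc rose from 606 and 645 to 1166 and 881 (0.61, SE 0.21). Of 12 p53 target genes, 1 rose and 2 fell (median -0.14), and after the GC correction also 1 was higher and 2 lower, but the 2 lower were others. Pmaip1, which encodes the death-promoting protein Noxa, rose from 1941 and 1684 to 4502 and 4836 (1.27, SE 0.19, adjusted p = 5.52e-09). Bax and Cdkn1a fell by 0.80 (SE 0.21) and 0.57 (SE 0.20), with overlapping groups. Bax had 586 and 2415 in Dox and 516 and 1053 without it, and Cdkn1a had 788 and 1488 and then 658 and 932. The GC correction ended both calls (adjusted p = 0.0675 and 0.17). Ccng1 and Trp53inp1 were called lower only after it (corrected log2 fold changes -0.28 and -0.27).

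Of 12 genes of the integrated stress response, 2 fell and 0 rose (median -0.21, and 2 and 1 after the GC correction). Atf3, a stress-induced factor, had 64.4 and 96.4 in Dox and 19.2 and 20.7 without it (log2 fold change -2.06, SE 0.47), and Phgdh, the first enzyme of serine synthesis, had 899 and 1947 and then 809 and 938 (-0.70, SE 0.20) with overlap. Of 4 fibroblast markers tested, 1 fell and 0 rose (median -0.48, and 0 and 0 after the GC correction). This was Col1a1, at 63.4 and 46.7 in Dox and 28.8 and 17.7 without it.

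**Figure D5:**
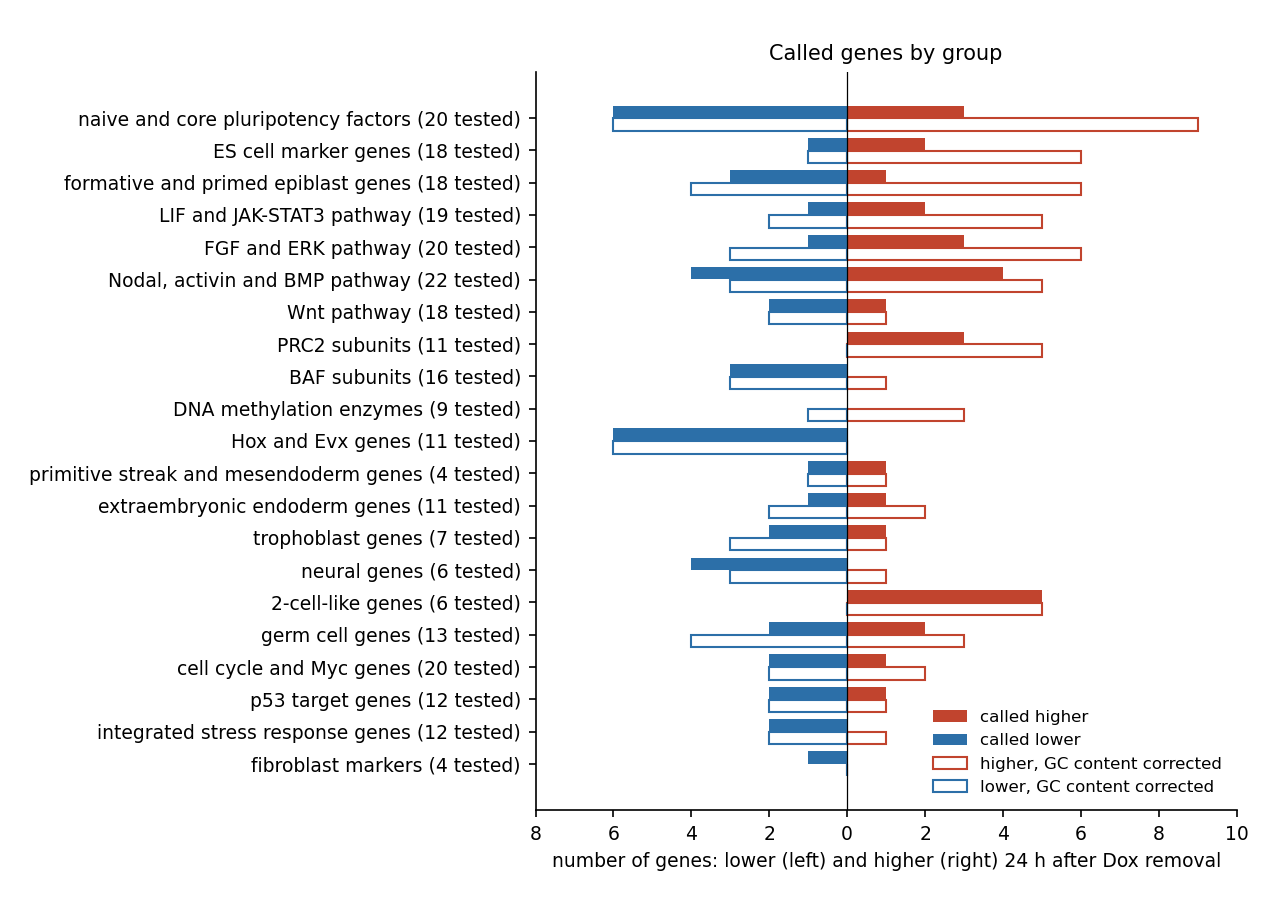
Number of genes called lower (left, blue) and higher (right, red) in each gene group 24 h after Dox removal, filled as tested and open after the GC correction, with the number tested per group. Only falls are seen for Hox and Evx genes (6 of 11) and only rises for 2-cell-like genes (5 of 6) and PRC2 subunits, with and without the correction. Evx1, Hoxa13, Hoxa9 and Hoxa7 were tested through their counts in Dox only, and the 2-cell-like genes include near-identical Zscan4 copies.

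An independent set of libraries carried the opposite manipulation, since SunTag cells raise Nanog above its normal level. There the change was computed in the same direction, Nanog low minus Nanog high, in 5 libraries that share none with the 44iN comparison. The times differ, with 72 h of Dox induction in SunTag cells and 24 h of Dox withdrawal in 44iN cells. Of the 633 genes that rose in 44iN cells, 498 had a positive SunTag change (78.7%, median 0.48), and of the 1279 that fell, 1033 had a negative one (80.8%, median -0.43). Of the 12464 genes not called, 64.3% had the same sign in both systems. In the middle GC group, 82.8% of 250 genes called and 61% of 2372 not called did. The GC trend had the same direction in SunTag cells, from 0.18 in the lowest group to -0.18 in the highest, and Dox was again absent from the Nanog-low cells.

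Of the 12 named decreases, 12 were also lower in SunTag cells with low Nanog, and the SunTag libraries did not overlap for 11. These 12 include Nanog, which Dox induces directly in SunTag cells, so its direction there was fixed by the design. They also include the Atxn3 identifier that is not taken as a change of the gene. Hoxa13 differed there by -4.39 (SE 0.40), Pla2g4e by -2.46 (SE 0.25) and Il6ra by -2.13 (SE 0.47). Of the 12 increases, 10 had the same sign and 7 did not overlap. Otx2 differed by 1.86 (SE 0.25), Spna1 by 1.98 (SE 0.21) and Dpp4 by 1.96 (SE 0.34), but Gata6 by 0.44 (SE 0.73). Foxa1, at -0.07 (SE 0.73), and Sema6a, at -0.58 (SE 0.46), went the other way. Ccnd2 had the other sign, at 0.98 (SE 0.22).

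The difference between the systems, in which the time in or out of Dox also differed, was tested in 1 joint fit. It passed for 2 of 15642 genes (0.0128%), with 993 at an unadjusted p under 0.05. One was Nanog, whose log2 change was larger in 44iN cells by 2.80 in size (difference -2.80, adjusted p = 0.0478), with 29487, 23345 and 21940 normalised counts in SunTag cells without Dox and 93813 and 75226 with it. The other was the predicted gene Gm12366, at 15.9 and 11070 in Dox and 0 and 405 without it in 44iN cells, where 1 library holds nearly all the counts. For Gata6, Foxa1 and the other genes named, no difference between the systems was called by edgeR.

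Long-term loss was compared with the 24 h time point, with no term for the pair. The level in 44iN -Dox LT cells was higher than at 24 h for 655 of 15326 genes (4.27%) and lower for 684 (4.46%), and G418, passages and depth differ together with time and cannot be told apart from it. Nanog was lower still, at 276 and 228 (log2 difference -1.46, SE 0.20, adjusted p = 0.00734). Otx2 had no called difference (0.16, SE 0.26, adjusted p = 0.717). Both comparisons use the 24 h libraries, so their values are given side by side only.

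Several genes named above differed further in long-term cells. Esrrb was at 3857 and 4339 (log2 difference from 24 h -1.09, SE 0.28, adjusted p = 0.0477) and Klf4 at 782 and 850 (-1.47, SE 0.21, adjusted p = 0.00778). Lefty2 was at 1958 and 1679 (2.19, SE 0.23, adjusted p = 0.00366) and Dnmt3b at 13571 and 15853 (1.54, SE 0.26, adjusted p = 0.0146). Lama1, which fell at 24 h, was at 12659 and 7357 (2.35, SE 0.33, adjusted p = 0.00734), near the 5978 to 10088 of Tg2a FCS cells. Kit, Ncam1 and Prdm14, which fell at 24 h, were lower again, Kit at 473 and 338 (-1.73, SE 0.19, adjusted p = 0.00532).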

How the data were processed

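The authors deposited a table of estimated counts per gene (stranded polyA reads, mm9, STAR, RSEM) and a signal for each gene, the same counts after division by a DESeq2 size factor, called normalised counts here. Groups and pairs come from the labels, which do not say that a replicate number marks a shared culture. Deviations of same-numbered libraries from their group means had a correlation of 0.49 over 14376 genes, and the pair term passed for 3505.

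Genes reaching 10 normalised counts in both libraries of either group were tested on the estimated counts with edgeR (4.0.16, R 4.3.3, TMM, quasi-likelihood test, Benjamini-Hochberg adjustment). The same test gave the difference between the 44iN and SunTag effects (pair and clone as blocks, 9 libraries) and long term minus 24 h (9 libraries). Alternatives used DESeq2 (1.42.0), other filters, scalings and libraries. The GC correction (loess, span 0.5) was added after the data were seen. The scripts were tested on simulated counts.

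Named were Nanog, the 12 largest increases and decreases among genes called, averaging 100 normalised counts or more in the higher group, with both pairs in 1 direction and no overlap (148 predicted genes of 1023 left out), up to 4 called members of each of 21 gene lists, and 7 genes of the study. Klf5, Tbx3, Pou5f1, Sox2, Fgf5, Smad7, Skil, Hoxa9, Hoxd13, Hoxa7, Lrp6, Actl6a, Ccng1 and Trp53inp1, and the genes picked from these for the SunTag and long-term comparisons, were chosen after their values were seen. Members, lists and the block, which the study did not use, were chosen with earlier results of these data known. A symbol with several identifiers was taken at the one with most counts, except Atxn3. The values of 1 gene are not reported here. SEs and floors (3 counts) cover these libraries and counting error only.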

Additional observations from a re-analysis of the deposited data

Results flagged for a closer look

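The fall of Nanog differed between 44iN and SunTag cells by a log2 difference of -2.80 (adjusted p = 0.0478, edgeR's quasi-likelihood test of the difference, Benjamini-Hochberg adjustment), the 44iN fall being larger in both pairs. The difference for Gm12366 was -5.08 (adjusted p = 0.0151) and rests on 1 library, the second in Dox with 11070 normalised counts.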

How the results depend on the processing

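The main count of 1912 genes rested on the replicate block. Without the block edgeR called 0 genes and DESeq2 141, DESeq2 with the block called 677, and the spread shared with 5 other libraries gave 299. Corrected for GC content, which was chosen after seeing the data, 2228 were called with the block and 23 without it. Leaving out 1 library, with no block, gave 45 to 3351 calls: 45 and 103 without the first and second -Dox library, 3351 and 365 without the first and second +Dox library. Other filters, DESeq2 size factors and thinning to the smallest library gave 1706 to 1984. The Nanog log2 fold change was -4.56 without the replicate block (adjusted p = 0.0902, edgeR).

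The count of genes differing from SunTag cells, 2, was 0 without the replicate block, 61 by DESeq2 and 1 with DESeq2 size factors, and that of long term against 24 h was 2555 by DESeq2 against 1339. With 1 library left out, the log2 fold change ranged from -1.66 to 0.27 for Lrp5, -1.11 to 0.01 for Dpf2, -1.07 to 0.06 for Smarca4, -1.75 to 0.36 for Bax and -14.98 to 3.59 for Gm12366, the sign turning without the second +Dox library in each case. The cause was not tested. With 2 libraries a group and 12624297 counts in the smallest, changes of genes at a few counts could not be resolved.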
